A study of Harpegnathos saltator with 36 samples.

Results

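Among 18429 genes counted in single ant brains, 92 ranged more than 10-fold between brains that had received the same small interfering RNA (siRNA), in both siRNA groups of the study. Their members were chosen by rule: a mean of at least 10 counts per 1000000 gene counts (CPM) over 18 brains, and a highest CPM more than 10 times the lowest both within the 9 CrzR siRNA brains and within the 9 GFP siRNA brains, with values under 0.1 CPM raised to 0.1. The mean was reached by 7550 genes. Of these, 55 passed the range in the CrzR siRNA brains alone, 158 in the GFP siRNA brains alone and 7245 in neither. Because the spread between brains chose the 92 genes, that spread and the way the genes vary together are given as descriptions, without a test. Their differences between the siRNA groups and their relation to sequencing depth were not used by the rule and were tested. Depth varied within each siRNA group, however, so the rule can favour genes that follow it. A wide spread within groups also makes differences between the group means larger.

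The brains came from Harpegnathos saltator ants that had dueled for 3 days and were taken on day 6 of the colony's transition. Ants were housed 6 to a nest. Of each nest, 3 received Dicer-substrate siRNA against the corazonin receptor (CrzR) and 3 the same kind of siRNA against GFP, a jellyfish gene used as the control. Every ant of both groups was injected in the head with 0.5 µl at 5 µM, complexed with in vivo-jetPEI, and brains were dissected without the optic lobes 1 day later. Each brain made 1 polyadenylated RNA library, so the p-values below rest on the spread between brains. Differences between animals and between their libraries cannot be told apart in it. Brains are named by siRNA and replicate number, as CrzR 1 or GFP 1, and the labels do not say which ants shared a nest.

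Harpegnathos workers fight ritual duels when the queen is lost, and winners become egg-laying workers called gamergates. Corazonin is a neuropeptide that acts through a G protein-coupled receptor, and in this ant it is known for favouring worker behaviour over reproduction. A library made from 1 brain keeps the differences between animals that a pool of brains would average out. The files identify the genes by ID alone, so no function is given for any of them, and neither the extent of the knockdown nor markers of brain tissue are analysed here.

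Gene counts per brain lay between 9508039 and 23749133 in CrzR siRNA brains and between 9979706 and 23581498 in GFP siRNA brains, so that 1 count was worth 0.0421 to 0.105 CPM. The brains CrzR 5, CrzR 6, GFP 7 and GFP 9 had at most 11471654 gene counts, and the next shallowest, CrzR 1, had 13029982. Small nuclear RNA, which is not normally polyadenylated, took 758 to 1685 CPM, here over the counts of all features, in these 4 shallow brains, against 129 to 674 in the other 14. Results that the 4 brains move are given with and without them.

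The range of a gene over all 18 brains was 14.2-fold at the lowest among the 92, 41.9-fold at the median and 11394-fold at the highest. It passed 100-fold for 26 of the genes and 1000-fold for 8. The smaller of the 2 ranges within a siRNA group had a median of 16.8-fold, while over the 7550 genes of sufficient mean it was 2.20-fold. Just inside the rule's threshold, Hsal_02228 ranged 10.1-fold within the CrzR siRNA brains and 13.2-fold within the GFP siRNA brains, and Hsal_09310 ranged 12.0-fold within the CrzR siRNA brains and 10.2-fold within the GFP siRNA brains. Just outside it, Hsal_05532 ranged 9.93-fold within the CrzR siRNA brains and 20.2-fold within the GFP siRNA brains, and Hsal_00907 ranged 9.81-fold within the CrzR siRNA brains and 20.9-fold within the GFP siRNA brains.

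**Figure D1:**
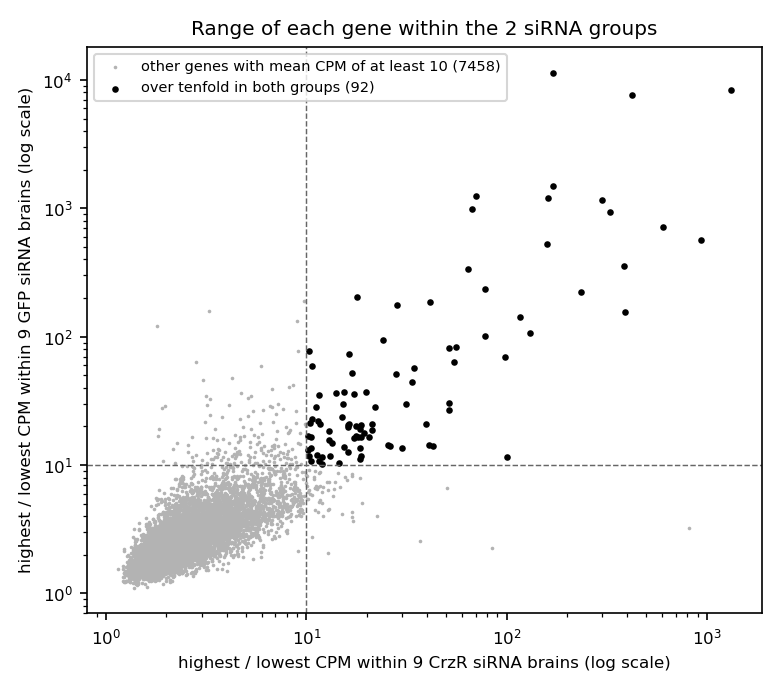
Highest over lowest CPM within the 9 CrzR siRNA brains (x axis, log scale) against the same ratio within the 9 GFP siRNA brains (y axis, log scale), 1 point for each of the 7550 genes with a mean of at least 10 CPM. The 92 chosen genes (black) lie beyond both dashed lines at 10, next to 55 genes beyond the vertical line alone and 158 beyond the horizontal line alone.

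The 92 genes covered low and high abundance. Per length, their mean level over the brains ran from 0.512 RPKM (CPM per kilobase of gene model) for Hsal_09310, whose gene model of 43255 bases is the longest, to 2676 RPKM for Hsal_03463. The median of these means was 28.6 RPKM, against 25.7 RPKM over the 7550 genes. The median gene model was 1269.5 bases long, against 1980 for the 7550 genes. The lowest brain still had at least 10 counts for 78 of the genes and at least 30 for 52.

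Counting noise limits the low end of some genes. A total of 7 values, in 5 genes, were 0 counts, and each 0 allows up to 3 counts, or 0.137 to 0.301 CPM depending on the brain. At the unfavourable ends of exact 95% Poisson intervals, which cover counting error only, all 92 genes ranged over 10-fold across the 18 brains, and 59 did so within both siRNA groups, so that for the other 33 the range within at least 1 group can fall to 10-fold or less by counting error. The biological coefficient of variation that edgeR fitted had a median of 0.879 for the 92 genes, against 0.330 for all 10085 tested genes. It is fitted to the same spread within groups that chose the 92 genes, so the higher value follows from the rule.

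For most of the genes, brains lay in number on both sides of the middle of the range. Such a count does not tell an even spread from separate levels. For each gene the midpoint of its range was taken on the log scale. At most 6 of the 18 brains lay above it for 5 genes (Hsal_04752, Hsal_04753, Hsal_08625, Hsal_09096.2 and Hsal_11322), 7 to 11 brains for 62 genes and 12 or more brains for 25 genes. When the second highest brain was set against the second lowest within each group, 35 genes ranged over 10-fold in both groups. For the rest, the 10-fold range in at least 1 group depended on its highest or lowest brain.

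No brain was high or low for all of the genes. The number of the 92 genes above their midpoint was 24 at the lowest, 58 at the median and 75 at the highest in CrzR siRNA brains, and 19, 49 and 75 in GFP siRNA brains. CrzR 6 and GFP 5 had the most, while GFP 8, CrzR 4 and GFP 6 had the fewest. GFP 1 held the highest value of 16 genes and CrzR 2 that of 13, and GFP 8 and GFP 9 each held the lowest value of 14.

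As a share of gene counts, the 92 genes together took 0.388%, 1.12% and 2.32% in CrzR siRNA brains (lowest, median, highest) and 0.215%, 1.14% and 8.86% in GFP siRNA brains. The highest share belonged to GFP 1, where Hsal_05415 and Hsal_03463 alone held 7.31% of gene counts. Without these 2 genes the share in GFP 1 was 1.55%.

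The genes fell into groups that were high in different brains. Average-linkage clustering on Pearson's r of log2(CPM + 0.5) over the 18 brains, cut at a mean r of 0.6, put 76 of the 92 genes into 8 groups of at least 4, each called here by its gene of highest mean CPM. Another 10 genes formed 5 pairs, and 6 stood alone. Over all 4186 pairs among the 92 genes the median r was 0.126, and 12.0% of pairs had an r over 0.6. Over the pairs of the 7550 genes the median was 0.108 and the share over 0.6 was higher, at 22.6%. Pairs with an r under -0.6 made up 2.22% of the pairs among the 92 genes, against 15.4% among the 7550. All correlations share the same 18 libraries and their depths.

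**Figure D2:**
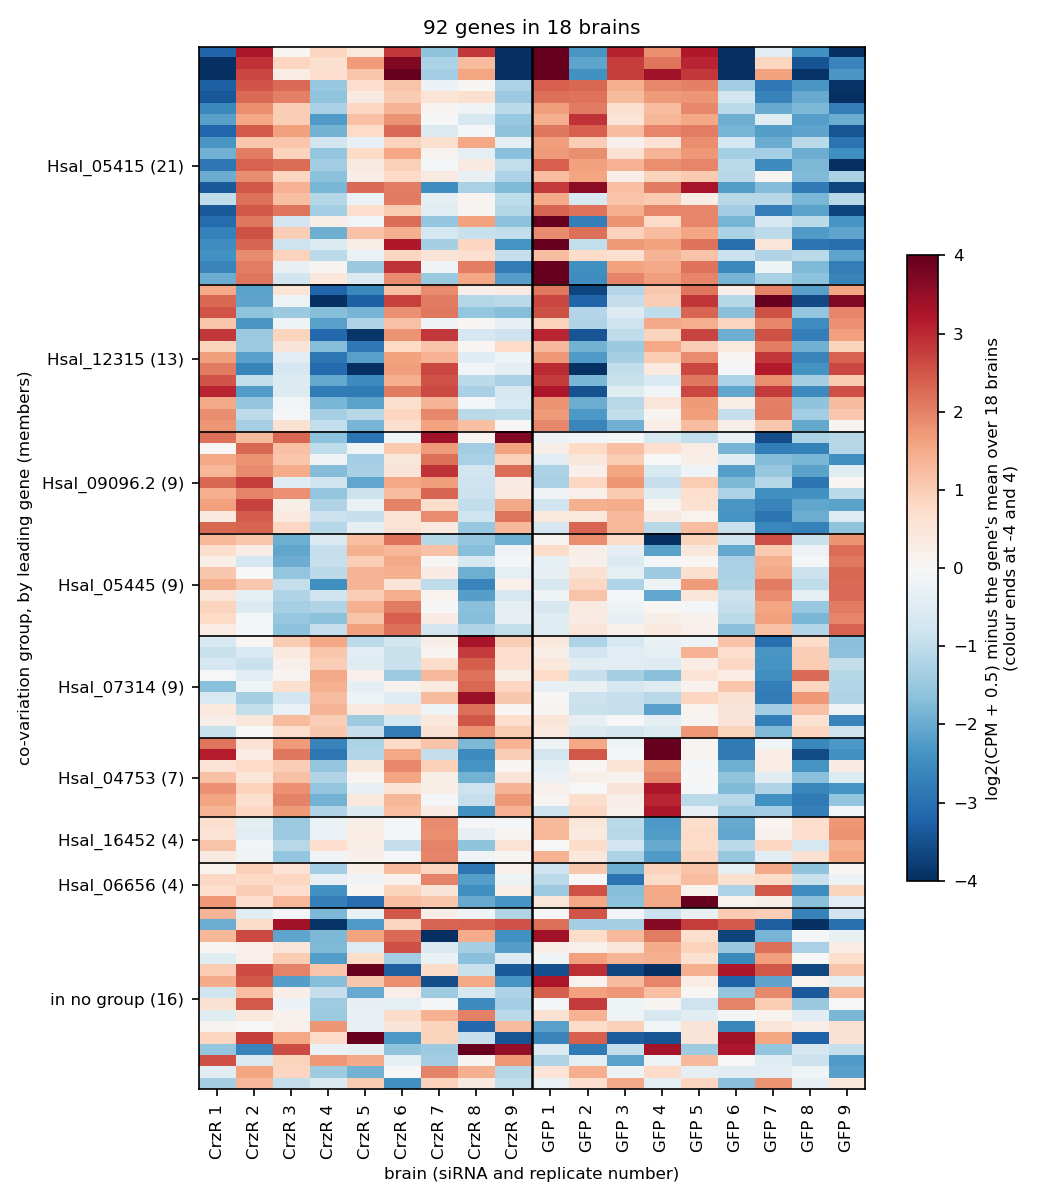
Each of the 92 genes (rows) in each of the 18 brains (columns, CrzR siRNA left of the vertical line and GFP siRNA right of it), coloured by log2(CPM + 0.5) minus the gene's mean over the brains, with colours ending at -4 and 4. Rows are ordered by co-variation group and then by mean CPM, and the 8 groups show 8 different sets of red brains, such as GFP 1 for the Hsal_05415 group and GFP 4 for the Hsal_04753 group.

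The largest group, of 21 genes, was led by Hsal_05415 and also held Hsal_03463 and Hsal_11247 (median r 0.77 within the group, and 0.76 without the most extreme brains GFP 9 and CrzR 1). Hsal_05415 was at 24.6, 592 and 4214 CPM in CrzR siRNA brains (lowest, median, highest) and at 4.34, 329 and 49462 CPM in GFP siRNA brains. The highest of these values is GFP 1, and the next highest brains, CrzR 2 and GFP 5, lay more than 10 times below it. GFP 6 and GFP 9, at 4.34 and 19.5 CPM, lay below every CrzR siRNA brain, and the other GFP siRNA brains apart from GFP 1 lay within the range of the CrzR siRNA brains.

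Hsal_03463 was at 14.5, 860 and 6154 CPM in CrzR siRNA brains and at 3.11, 858 and 23632 CPM in GFP siRNA brains. Hsal_11247 was at 0.998, 120 and 1325 CPM in CrzR siRNA brains and at 0.411, 233 and 3445 CPM in GFP siRNA brains. Both were again highest in GFP 1 and lowest in GFP 6. All 21 genes lay above their midpoints in CrzR 2, CrzR 6, GFP 1, GFP 3, GFP 4 and GFP 5, and none of them did in CrzR 1, GFP 8 and GFP 9.

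At a stricter mean r of 0.7 the group separated into 7 genes led by Hsal_05415 and 14 led by Hsal_04239. What set them apart was mainly GFP 1 and GFP 2. The 7 genes lay a median of 5.31 log2 units above their own means in GFP 1 and at -2.41 in GFP 2. The 14 genes lay 1.79 above their means in GFP 1 and 2.12 above them in GFP 2. Among the 14 were Hsal_04237, Hsal_04238, Hsal_04239 and Hsal_04240, which carry consecutive IDs and whose pairwise r was at least 0.98. Hsal_04239, the most abundant of the 4 per length with a mean of 233 RPKM, was at 17.3, 177 and 971 CPM in CrzR siRNA brains and at 10.6, 456 and 884 CPM in GFP siRNA brains.

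The second group held 13 genes led by Hsal_12315, with Hsal_11245 and Hsal_12730 next in mean CPM, and was the tightest of the larger ones (median r 0.90). Hsal_12315 was at 42.0, 495 and 1449 CPM in CrzR siRNA brains and at 30.3, 820 and 1719 CPM in GFP siRNA brains. Hsal_11245 was at 1.23, 20.9 and 289 CPM in CrzR siRNA brains and at 3.10, 86.8 and 687 CPM in GFP siRNA brains. Brains of both groups were at both ends for these genes.

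Hsal_12730 was at 17.9, 22.2 and 382 CPM in CrzR siRNA brains and at 20.5, 45.5 and 386 CPM in GFP siRNA brains. It fell into separate levels, with 3 CrzR siRNA and 4 GFP siRNA brains at 235 to 386 CPM and the other 11 brains at 17.9 to 45.5 CPM. The same 7 brains, CrzR 1, CrzR 6, CrzR 7, GFP 1, GFP 5, GFP 7 and GFP 9, had all 13 genes of the group above their midpoints, and CrzR 2, CrzR 4, CrzR 5, GFP 2 and GFP 8 had none. The profile of this group had an r of -0.04 with that of the Hsal_05415 group.

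The group led by Hsal_09096.2 held 9 genes, among them Hsal_04477 and Hsal_10333 (median r 0.81). Hsal_09096.2 was at 28.5, 531 and 2866 CPM in CrzR siRNA brains and at 18.4, 141 and 213 CPM in GFP siRNA brains. In 6 of the 9 CrzR siRNA brains it lay above the highest GFP siRNA brain, while CrzR 4, CrzR 5 and CrzR 6 lay within the range of the GFP siRNA brains. Hsal_04477 was at 102, 556 and 1324 CPM in CrzR siRNA brains and at 39.2, 319 and 616 CPM in GFP siRNA brains.

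Hsal_10333 was at 32.9, 165 and 393 CPM in CrzR siRNA brains and at 15.1, 62.4 and 175 CPM in GFP siRNA brains. All 9 genes of the group lay above their midpoints in CrzR 1, CrzR 2, CrzR 7 and CrzR 9, and none in GFP 6, GFP 7 and GFP 8. Every group of genes other than this one had all of its members above their midpoints in at least 1 brain of each siRNA group.

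A pair of 9-gene groups ran in opposite directions across brains, with an r of -0.80 between their profiles over the 18 brains. Opposite movement was rarer among the 92 genes than among the 7550, as given above. The first, led by Hsal_05445 with Hsal_12914 and Hsal_03176 (median r 0.80), was high in all 9 genes in CrzR 1, CrzR 5, CrzR 6, GFP 2, GFP 7 and GFP 9. The other, led by Hsal_07314 with Hsal_03256 and Hsal_00048 (median r 0.81), was high in all 9 genes in CrzR 4, CrzR 8, CrzR 9, GFP 1, GFP 6 and GFP 8. Without its 2 most extreme brains, CrzR 8 and GFP 7, the median r of the Hsal_07314 group was 0.70. As given below, genes of these 2 groups also followed depth, in opposite directions. The part of depth in the r of -0.80 was not tested.

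Hsal_05445 was at 25.8, 67.5 and 463 CPM in CrzR siRNA brains and at 3.03, 169 and 614 CPM in GFP siRNA brains. At the stricter mean r of 0.7 it separated from the other 8 genes of its group. In GFP 4 it lay at -4.86 log2 units from its own mean, against a median of -0.14 for those 8. Hsal_07314 was at 11.4, 29.8 and 243 CPM in CrzR siRNA brains and at 2.62, 20.4 and 54.7 CPM in GFP siRNA brains. CrzR 8 was the highest brain for Hsal_07314 and among the low ones for Hsal_05445, and GFP 7 was the reverse. Hsal_12914 was at 28.4, 151.6 and 333 CPM in CrzR siRNA brains and at 27.2, 146 and 574 CPM in GFP siRNA brains. Hsal_03176 was at 17.7, 69.6 and 205 CPM in CrzR siRNA brains and at 29.0, 68.0 and 311 CPM in GFP siRNA brains. Both were highest in GFP 9, and their groups overlapped.

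Within the Hsal_07314 group, Hsal_03256 was at 11.7, 23.8 and 157 CPM in CrzR siRNA brains and at 4.01, 17.0 and 59.4 CPM in GFP siRNA brains. Hsal_00048 was at 11.1, 24.2 and 115 CPM in CrzR siRNA brains and at 3.66, 15.6 and 43.2 CPM in GFP siRNA brains. For both genes CrzR 8 was the highest brain and GFP 7 the lowest. Per length the genes of this group had means of 5.17 to 19.6 RPKM, and every other group held a gene with a higher mean.

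The group led by Hsal_04753, with Hsal_04752 and Hsal_02650 among its 7 genes (median r 0.88), stood out in GFP 4. Hsal_04753 was at 58.1, 627 and 1654 CPM in CrzR siRNA brains and at 52.1, 323 and 9131 CPM in GFP siRNA brains. Hsal_04752, which carries the neighbouring ID, was at 11.1, 104 and 750 CPM in CrzR siRNA brains and at 6.62, 79.9 and 6567 CPM in GFP siRNA brains. GFP 4 was the highest brain for both. Without GFP 4 and GFP 8 the median r of the group was 0.80. Hsal_02650 was at 54.8, 413 and 1060 CPM in CrzR siRNA brains and at 53.4, 298 and 956 CPM in GFP siRNA brains, with CrzR 6 highest.

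The 2 smallest groups had 4 genes each. Hsal_16452, which led the first with Hsal_15876 and Hsal_03351, was at 51.0, 137 and 540 CPM in CrzR siRNA brains and at 29.3, 204 and 487 CPM in GFP siRNA brains, with CrzR 7 highest and GFP 4 lowest. Hsal_15876 was at 29.1, 79.1 and 297 CPM in CrzR siRNA brains and at 16.8, 106 and 283 CPM in GFP siRNA brains. The ratio of Hsal_16452 to Hsal_15876 stayed between 1.55 and 2.14 in all 18 brains (r 0.996), while each gene ranged 18.4-fold and 17.7-fold. Whether these genes share reads as near-identical copies is not known from the files.

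Hsal_03351 was at 5.98, 22.9 and 78.9 CPM in CrzR siRNA brains and at 4.41, 19.6 and 52.3 CPM in GFP siRNA brains. The last group was the loosest (median r 0.63) and was led by Hsal_06656 with Hsal_02801 and Hsal_05664. Without its 2 most extreme brains, CrzR 8 and CrzR 4, its median r was 0.57. Hsal_06656 was at 12.3, 112 and 228 CPM in CrzR siRNA brains and at 23.9, 98.3 and 269 CPM in GFP siRNA brains. It was lowest in CrzR 8, GFP 3 and GFP 8.

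Hsal_02801 was at 18.5, 97.5 and 345 CPM in CrzR siRNA brains and at 10.7, 87.4 and 205 CPM in GFP siRNA brains, and Hsal_05664 at 8.84, 74.2 and 102 CPM in CrzR siRNA brains and at 8.74, 56 and 305 CPM in GFP siRNA brains. The profile of the Hsal_06656 group had an r of 0.66 with that of the Hsal_04753 group and of -0.61 with that of the Hsal_07314 group.

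**Figure D3:**
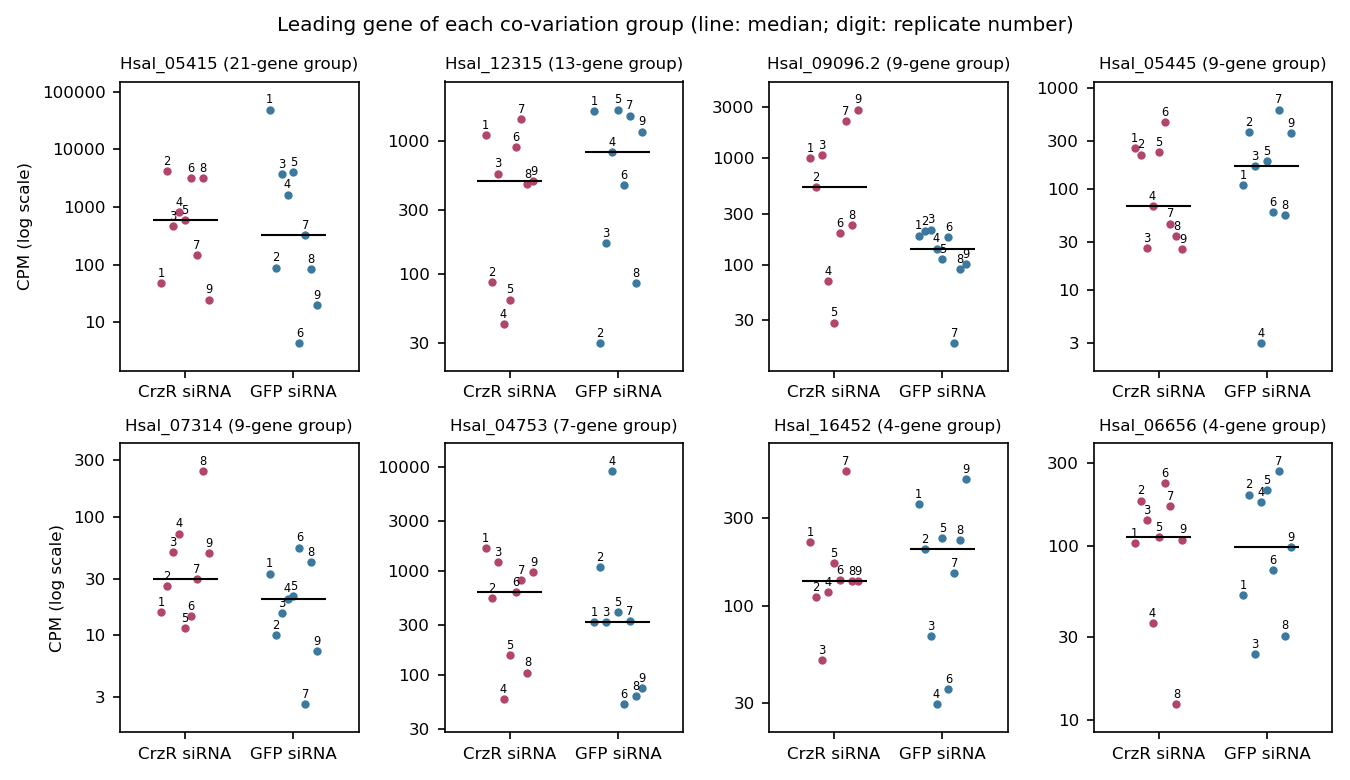
CPM (log scale) of the leading gene of each of the 8 co-variation groups in the 9 CrzR siRNA brains (left of each panel) and the 9 GFP siRNA brains (right), with replicate numbers beside the points and a line at each median. In every panel the siRNA groups overlap, and the high brains differ from panel to panel, as with GFP 1 at 49462 CPM for Hsal_05415 and GFP 4 at 9131 CPM for Hsal_04753.

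Of the 16 genes outside these groups, the widest ranges belonged to Hsal_08840 and Hsal_12731. Hsal_08840 paired with Hsal_11054 (r 0.99). It was at 0.475, 19.8 and 156 CPM in CrzR siRNA brains and at 0, 21.7 and 93.1 CPM in GFP siRNA brains, with the 0 in GFP 4 allowing up to 0.197 CPM. It was under 1 CPM in 6 brains, CrzR 6, CrzR 9, GFP 1, GFP 3, GFP 4 and GFP 8, and at 4.93 CPM or more in the other 12. Hsal_12731 stood alone and was at 4.88, 147 and 834 CPM in CrzR siRNA brains and at 0.678, 31.5 and 1006 CPM in GFP siRNA brains.

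Among the 92 genes, 16 formed 9 pairs with consecutive IDs, and in 8 of the 9 pairs both genes fell into the same cluster. The exception was Hsal_12730 and Hsal_12731, whose r was -0.00012. Pairs inside a cluster included Hsal_02043 and Hsal_02044 (r 0.98) and Hsal_04752 and Hsal_04753 (r 0.96). Consecutive IDs are taken as they stand, since no coordinates were used here.

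The first comparison asked whether the level of these variable genes in the brain differed 1 day after knockdown of the corazonin receptor. None of the 92 genes passed (0 of 92, edgeR's quasi-likelihood test, adjusted p under 0.05), and none of the 10085 tested genes did (0% of all tested). At an unadjusted p under 0.05 there were 8 of the 92 genes, against 832 of all tested genes (8.25%). After CrzR siRNA, 6 of the 8 were higher and 2 were lower, and the shares of all tested genes were 4.79% higher and 3.46% lower. DESeq2 and limma voom also called 0 of the 92. The CPM of the siRNA groups overlapped for all 92 genes, and did not overlap for 1 of the 10085 tested genes (0.00992%). In these bulk samples, fewer cells of a type and less RNA per cell cannot be told apart.

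Fold changes of the 92 genes were large and their errors were large too. The absolute log2 fold change was over 1 for 27 of the 92 genes, against 1.73% of all tested genes and 0.728% of the 7550 genes of sufficient mean. Its median was 0.56 against 0.23. The median standard error was 0.64 for the 92 genes and 0.22 for all tested genes. A rule on the range within groups favours genes with large errors, and their fold changes are larger for that reason alone. The larger sizes are therefore a description with no test. The sign was positive (higher after CrzR siRNA) for 32 genes and negative for 60, with a median log2 fold change of -0.26, against -0.00058 over all tested genes. These signs are not independent, since genes of a co-variation group vary together. A single brain can move many of them, as given below for GFP 1 and the Hsal_05415 group.

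By p, the leading 2 genes in each direction were Hsal_09096.2 and Hsal_01380, higher in CrzR siRNA brains, and Hsal_12846 and Hsal_00906, lower in them. Hsal_09096.2, whose values are given above, had a mean of 915 CPM (SD 1012, n = 9) after CrzR siRNA, against a mean of 139 CPM (SD 64.2, n = 9) after GFP siRNA. Its log2 fold change was 2.63 (SE 0.67, edgeR adjusted p = 0.530), and over all alternatives the adjusted p ran from 0.0830 with DESeq2 to 0.867. In the authors' deposited table, from the same brains, its log2 fold change was 2.62 with an adjusted p of 0.0341, which made it the only 1 of the 92 among the 4 genes under 0.05 there.

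Hsal_01380 was at 2.67, 14.6 and 48.4 CPM in CrzR siRNA brains and at 1.2, 5.40 and 19.9 CPM in GFP siRNA brains. Its log2 fold change was 1.46 (SE 0.54, edgeR adjusted p = 0.530). Hsal_12846 was at 3.45, 8.60 and 35.7 CPM in CrzR siRNA brains and at 1.06, 39.2 and 81.9 CPM in GFP siRNA brains, and its log2 fold change was -1.72 (SE 0.59, edgeR adjusted p = 0.530). For both genes most brains of one siRNA group lay beyond the other group's median, and the ranges overlapped. Hsal_00906 was at 5.03, 18 and 52.5 CPM in CrzR siRNA brains and at 3.84, 41.8 and 82.2 CPM in GFP siRNA brains, and its log2 fold change was -1.23 (SE 0.49, edgeR adjusted p = 0.530).

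Within several co-variation groups the fold changes shared a sign. Genes of a group vary together over the same brains and are not independent of each other. All 9 genes of the Hsal_09096.2 group had positive log2 fold changes, from 0.58 to 2.63, and 4 of them had an unadjusted p under 0.05. With each brain left out in turn, all 9 stayed positive. All 9 of the Hsal_07314 group were positive too, from 0.16 to 1.24, while without CrzR 8 there were 7 positive and 2 negative. All 9 of the Hsal_05445 group were negative, from -0.84 to -0.13, while without GFP 9 there were 4 negative and 5 positive, with Hsal_12914 at 0.33. Leaving out CrzR 3, CrzR 4, CrzR 8 or GFP 7 turned 1 of these 9 genes positive. None of these genes passed the threshold over all tested genes.

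For the Hsal_05415 group the signs moved most with GFP 1. Its log2 fold change was positive for 1 of 21 genes, with a median of -0.39, and without GFP 1 it was positive for 9 of 21, with a median of -0.04. For Hsal_05415 itself the log2 fold change was -2.28 (SE 1.34, edgeR adjusted p = 0.530), and 0.12 without GFP 1. DESeq2, which by default replaced the count of GFP 1 for this gene as an outlier, gave 0.13. For Hsal_04753 the log2 fold change was -1.11 (SE 0.91, edgeR adjusted p = 0.559), against 0.94 without GFP 4 and 0.88 with DESeq2, which replaced the count of GFP 4.

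**Figure D4:**
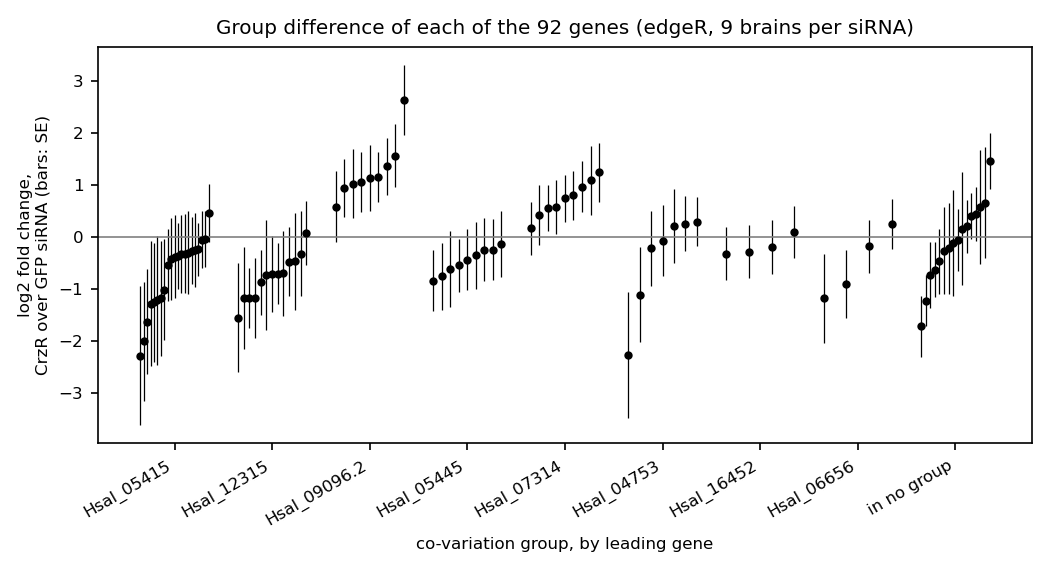
Log2 fold change of CrzR siRNA over GFP siRNA for each of the 92 genes (edgeR, 9 brains per siRNA), with its standard error as a bar, ordered by size within each co-variation group on the x axis. All 9 points of the Hsal_09096.2 group lie above 0, with the highest at 2.63 for Hsal_09096.2, while 3 of the 7 points of the Hsal_04753 group lie above 0 and 4 below, and no gene passed an adjusted p of 0.05.

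The second comparison asked whether the genes' levels followed sequencing depth, with the siRNA as a second term. The slope is the log2 change in level per doubling of a brain's gene counts. Of the 92 genes, 27 passed an adjusted p of 0.05, 9 rising and 18 falling with depth, and this share was below the 57.1% of all tested genes that passed (32.3% rising, 24.9% falling) and the 63.2% of the 7550 genes of sufficient mean. The slopes of the 92 genes were nonetheless steeper, with a median absolute value of 1.17 against 0.59, and 51 of the 92 had one over 1, against 20.5% of all tested genes. Depth varied within each siRNA group, so a rule on the range within groups favours genes with steep slopes. It also favours genes with a wide spread, for which a slope passes less easily. The greater steepness and the lower share are therefore descriptions with no test. Depth moved with the small nuclear RNA share given above, whose part in these slopes was not tested.

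Of the 27 genes that followed depth, 24 lay in 5 of the 8 groups. All 9 genes of the Hsal_05445 group fell with depth, with slopes from -3.00 to -2.01, and 8 of 9 genes of the Hsal_07314 group rose with it (median slope 1.76). In the Hsal_12315 group 4 of 13 genes fell, in the Hsal_06656 group 2 of 4 and in the Hsal_04753 group 1 of 7. Of the 16 genes outside the groups, 3 passed (Hsal_10325, Hsal_13507 and Hsal_16428), 1 rising and 2 falling. None of the 21 genes of the Hsal_05415 group, the 9 of the Hsal_09096.2 group or the 4 of the Hsal_16452 group passed, and an effect that passed in one group of genes and not in another was not tested as a difference.

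Hsal_08625 and Hsal_11410, both of the Hsal_05445 group, had the smallest p among the falling genes. Hsal_08625 was at 2.78, 7.32 and 42.9 CPM in CrzR siRNA brains and at 3.14, 9.54 and 43.7 CPM in GFP siRNA brains, and its 4 highest brains were the 4 shallow ones. Its slope was -2.83 (SE 0.25, edgeR adjusted p = 4.67e-07). Hsal_11410 was at 2.08, 4.37 and 36.7 CPM in CrzR siRNA brains and at 2.06, 8.87 and 41.5 CPM in GFP siRNA brains, with a slope of -2.95 (SE 0.25, edgeR adjusted p = 4.61e-07).

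Hsal_07314 and Hsal_09375 led the rising genes. Hsal_07314 had a slope of 2.43 (SE 0.40, edgeR adjusted p = 6.32e-05). Hsal_09375 was at 2.49, 10.5 and 44.2 CPM in CrzR siRNA brains and at 0.697, 7.57 and 11.8 CPM in GFP siRNA brains, with a slope of 2.25 (SE 0.36, edgeR adjusted p = 5.19e-05). For both, CrzR 8, the deepest brain, was the highest and the shallow GFP 7 the lowest.

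Without the 4 shallow brains, 18 of the 92 genes passed, 4 rising and 14 falling, and 13 of them were among the 27, while 37.3% of all tested genes passed. In the Hsal_05445 group 6 of 9 genes then fell, in the Hsal_07314 group 4 of 9 rose and in the Hsal_12315 group 0 of 13 passed. Falling genes then numbered 3 of 7 in the Hsal_04753 group, 3 of 4 in the Hsal_06656 group and 1 of 9 in the Hsal_09096.2 group. Outside the groups only Hsal_10325 passed, falling with depth.

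**Figure D5:**
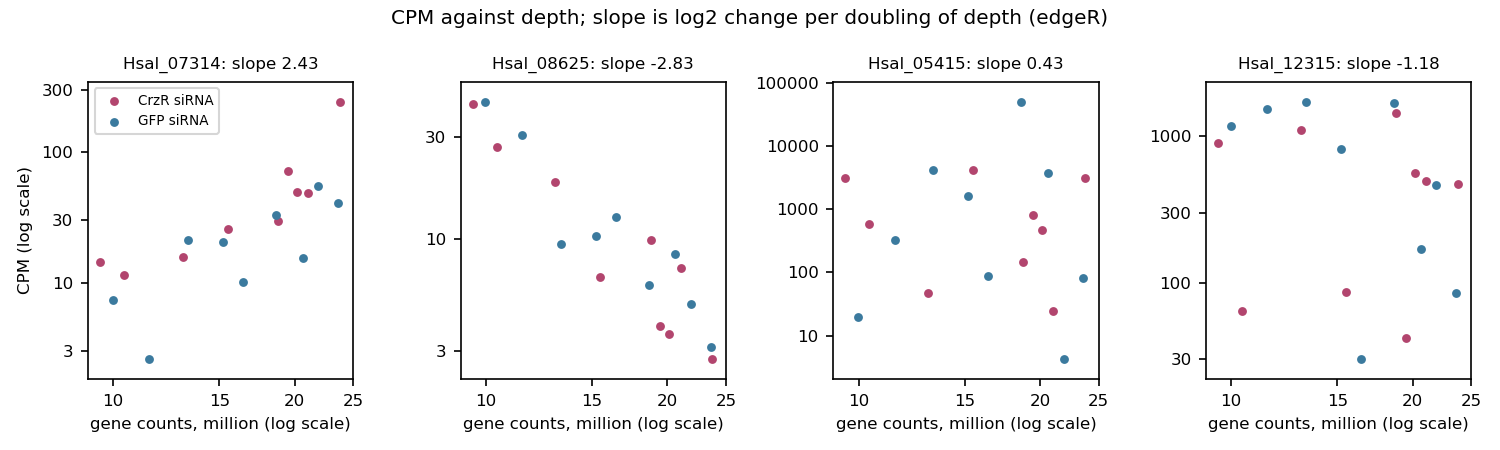
CPM (y axis, log scale) against gene counts (x axis, log scale) for 4 genes, 1 point per brain, with CrzR siRNA and GFP siRNA brains in different colours and edgeR's slope in each title. Hsal_07314 rises and Hsal_08625 falls with depth, with slopes of 2.43 and -2.83, while the brains of Hsal_05415 and Hsal_12315 scatter at every depth and their slopes of 0.43 and -1.18 did not pass.

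The labels also give each library an internal reference number, in a higher-numbered set of 8 brains (5 CrzR siRNA and 3 GFP siRNA) and a lower-numbered set of 10 (4 CrzR siRNA and 6 GFP siRNA). What the numbers stand for is not stated. With the siRNA as a second term, 0 of the 92 genes differed between the sets at an adjusted p under 0.05 by edgeR, DESeq2 or limma voom, and 0% of all tested genes did by edgeR. At an unadjusted p under 0.05 there were 3 of the 92 genes, against 6.35% of all tested. All 21 genes of the Hsal_05415 group had a positive log2 difference of higher-numbered over lower-numbered brains, which for Hsal_05415 was 1.91 (edgeR adjusted p = 0.803), and 15 of the 21 did without GFP 1. In the Hsal_09096.2 group 8 of 9 genes had a positive difference, and in each of the 6 remaining groups 0 did. Without GFP 4, however, 6 of the 7 genes of the Hsal_04753 group had a positive difference. In the others of these 6 groups, leaving out any 1 brain gave at most 2 positive genes. Genes of a group vary together, so their shared sign is not independent evidence.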

How the data were processed

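Strand-specific libraries were made from polyadenylated RNA, per the labels' protocols. The submitters' processing notes list STAR 2.5.0b and DESeq2. Build and counter were not given in the sources used here. Each deposited count column holds the whole-number counts of 1 brain, with both technical runs added. The deposited RPKM values, per the file headers, are counts per length and library total. Their divisors did not match the brain's own total, so they served only to recover gene lengths, and RPKM was recomputed. Per the file headers, the authors' deposited table holds log2 fold changes and p-values.

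CPM is a gene's count over the sum of the 18429 gene rows of its brain, without 769 rows of other RNA classes. Genes with a mean of at least 1 CPM were tested (10085) with edgeR 4.0.16 in R 4.3.3 (TMM scaling, quasi-likelihood F test, two-sided, Benjamini-Hochberg adjusted p under 0.05). A standard error is the log2 fold change over the root of F. DESeq2 1.42.0, limma 3.58.1 (voom), other scalings, filters and covariates, a replicate block and leaving out each brain were alternatives, and leaving out 4 shallow brains was added after seeing the data. Fits and clustering were tested on simulated data. Replicate numbers gave no sign of pairing the brains, so the main fits treat the brains as unpaired. No brains of the same siRNA group were duplicates, since the closest within a group differed by a chi-square of 41.8 per gene. Brains of different siRNA groups were not compared in this way. Total counts of all features ran from 9741263 to 24166021 per brain.

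The 92 genes and all lists were chosen with earlier results of these data known. Named genes are the 3 of highest mean CPM per co-variation group, the 5 of highest mean, the 5 of widest range, the 2 of smallest p per direction for siRNA and for depth, and 2 on each side of the threshold. Other genes were named after their values were seen. The row IDs were looked up among the 14329 genes listed for assembly Hsal_v8.6, and 0 were found there.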

Additional observations from a re-analysis of the deposited data

Results flagged for a closer look

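Within the groups of 9 brains, the lowest or highest brain of a named gene was compared with its nearest neighbour as a share of the group's range on the log2(CPM + 0.5) scale. Of 68 such groups, 3 had a brain that stood apart, all of them at the low end and in GFP siRNA brains. The rule that chose the genes used the same highest and lowest values, so the rate of about 1 in 20 groups that chance gives for unselected genes does not apply, and these values are a description with no test. Hsal_00906 was at 3.84 CPM in GFP 6, with the next GFP siRNA brain at 23 CPM. Hsal_05445 was at 3.03 CPM in GFP 4, with the next at 55.1 CPM. Hsal_09096.2 was at 18.4 CPM in GFP 7, 1 of the 4 shallow brains, with the next at 90.7 CPM.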

How the results depend on the processing

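The rule gave 92 genes, and 482 with a range over 5, 36 with a range over 20 and 35 with the second highest over the second lowest brain. It gave 63 to 127 under TMM scaling, thinned counts, other minimum means, a floor of 1 CPM and without the 4 shallow brains, and 73 to 92 when each brain was left out. Of the 92, 85 were shared with TMM scaling and 59 with the rule without the 4 shallow brains. Genes above their midpoint in at most 6 brains numbered 5, against 10 with a floor of 1 CPM and 8 with TMM scaling. The cause of these moves, other than the stricter or looser limit itself, was not tested.

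The siRNA calls stayed at 0 of 92 under every alternative run, including the replicate block, where 0 genes were called and 5 had an unadjusted p under 0.05. Without the block there were 8. Over the 10085 tested genes, with group means removed, same-numbered brains of the 2 groups had r from -0.58 to 0.77. It was above 0.1 in 3 of 9 pairs, and 2 of 18 brains were closest to their own number. These values gave no sign that the numbers pair the brains. They cannot settle it, since depth was not removed from them and the labels do not give the nests. Calls between the sets of reference numbers also stayed at 0. Genes that followed depth numbered 18 to 30, and 22 to 30 when each brain was left out. Genes in co-variation groups numbered 65 to 78, the lowest with the trend on depth removed, and 71 to 76 when each brain was left out.

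Signs of siRNA log2 fold changes that missed the threshold reversed as follows. With DESeq2 they were 0.12 for Hsal_04752, 0.88 for Hsal_04753 and 0.13 for Hsal_05415, all genes with counts that DESeq2 replaced. With limma voom they were 0.11 for Hsal_03463, 0.33 for Hsal_04753, 0.23 for Hsal_05415 and 0.79 for Hsal_12731. With the replicate block they were 0.63 for Hsal_04752, 0.88 for Hsal_04753 and 1.49 for Hsal_12731. With depth as a covariate Hsal_08840 was at -0.17, and with the reference set as a covariate Hsal_08840 was at -1.06 and Hsal_12731 at 0.16. Without the 4 shallow brains the values were -0.036 for Hsal_02650, -0.34 for Hsal_08840, 0.11 for Hsal_12914, 0.094 for Hsal_15876 and 0.12 for Hsal_16452.

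Leaving out each brain gave ranges that crossed 0 for 16 named genes. They were -0.092 to 0.65 for Hsal_02650, -0.11 to 0.42 for Hsal_02801, -0.13 to 0.84 for Hsal_03256, -0.30 to 0.42 for Hsal_03351, -1.95 to 0.25 for Hsal_03463, -2.91 to 0.79 for Hsal_04752, -1.39 to 0.94 for Hsal_04753 and -2.69 to 0.12 for Hsal_05415. They were -0.40 to 0.10 for Hsal_06656, -0.75 to 0.26 for Hsal_08625, -0.70 to 0.50 for Hsal_08840, -0.94 to 0.27 for Hsal_11410, -0.54 to 0.53 for Hsal_12731, -0.45 to 0.33 for Hsal_12914, -0.73 to 0.064 for Hsal_15876 and -0.70 to 0.094 for Hsal_16452. With 9 brains per siRNA and a median standard error of 0.64, log2 differences of this size between the groups were not resolved for these genes.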
